A study of Mus musculus with 11 samples.

Results

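The semaphorins, plexins, Slits, Robos, netrins, Unc5 receptors, Eph receptors and ephrins were followed in the transcriptome of hepatic sinusoidal endothelial cells (ECs). Members were every gene of the count table whose symbol belongs to one of these families, namely semaphorin classes 3 to 7, plexins A to D, Slit1 to Slit3, Robo1 to Robo4, the secreted netrins, Unc5a to Unc5d, and the Eph receptors and ephrins of classes A and B. The arteriovenous pair *Efnb2* and *Ephb4* was left out. This rule used names and no measured value, and it found 63 of the 29307 listed genes: 20 semaphorins, 9 plexins, 3 Slits, 4 Robos, 3 netrins, 4 Unc5 receptors, 7 ephrins and 13 Eph receptors.

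Livers came from male C57BL/6J mice of 10 to 12 weeks that were either conventionally raised under specific-pathogen-free conditions (CONV-R, n = 6) or kept germ-free in sterile isolators (GF, n = 5). GF and CONV-R mice came from the same colonies and ate the same kind of chow, and no transgene or treatment is described for them. ECs were bound to CD146 beads and then sorted as CD31+, CD105+ and CD146+ cells, so each library is a bulk average over a sorted population from 1 mouse. The comparison asks how the absence of a microbiota alters these transcripts.

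Guidance proteins were first described as cues that steer growing axons, and blood vessels use the same families. Semaphorins signal through plexins, alone or together with neuropilins, and mostly make cells retract by switching off integrins and small GTPases. Slits are secreted ligands of Robo receptors. *Robo4* is the endothelial member of its family and helps to keep the vessel wall tight, in part by binding Unc5b. Netrins are laminin-related proteins that act through DCC-type and Unc5 receptors, and netrin-4 is also built into basement membranes. Ephrins and Eph receptors are both anchored to the cell surface and signal in both directions where cells touch.

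The 11 libraries held 7242717 to 16164588 counts. Within a group, libraries correlated at Pearson's r of 0.961 to 0.987 across genes on the log2(CPM + 1) scale, where CPM are counts divided by the TMM-scaled library total and brought to a common library size. A pair of libraries stood apart. GF 2 held a count for 22674 genes, against 15456 to 18495 in the other libraries, and it was the highest library for 18 of the 29 members that were too weakly counted to test. CONV-R 3 correlated least with its group (median r = 0.963) and was the lowest library for 12 of the 34 tested members. GF 1, which is not of this pair, was the highest library for 11 of the 34. It stayed in the fit that left out both libraries that stood apart. Markers of the labelled cell type were present: all 12 sinusoidal EC markers were tested and none passed with all libraries, with summed levels of 38144 to 46645 CPM in CONV-R mice and 36442 to 50760 CPM in GF mice. Without GF 5, 3 of them passed as higher in GF (*Flt4*, *Oit3* and *Lyve1*), and *Lyve1* also passed without the filter on low counts.

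Of the 63 members, 34 had enough counts for edgeR's quasi-likelihood test and 29 did not. Among the tested members 7 passed a Benjamini-Hochberg adjusted p of 0.05, which is 20.6%, beside 7.48% of the 12905 genes tested. In GF ECs 5 were higher (*Sema7a*, *Sema3g*, *Slit3*, *Ntn4* and *Robo4*), or 14.7% beside 4.8% of all tested genes. *Sema6d* and *Sema6a* were lower, or 5.88% beside 2.67%. The groups did not overlap for 6 members, each of the 7 but *Robo4*, which is 17.6% beside 5.59% of all tested genes. The median Log2FC of the tested members was 0.24, with 23 values above zero and 11 below, while the median over all tested genes was -0.01 with 49.1% above zero. These counts describe a list of related genes and are no test of the list.

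**Figure D1:**
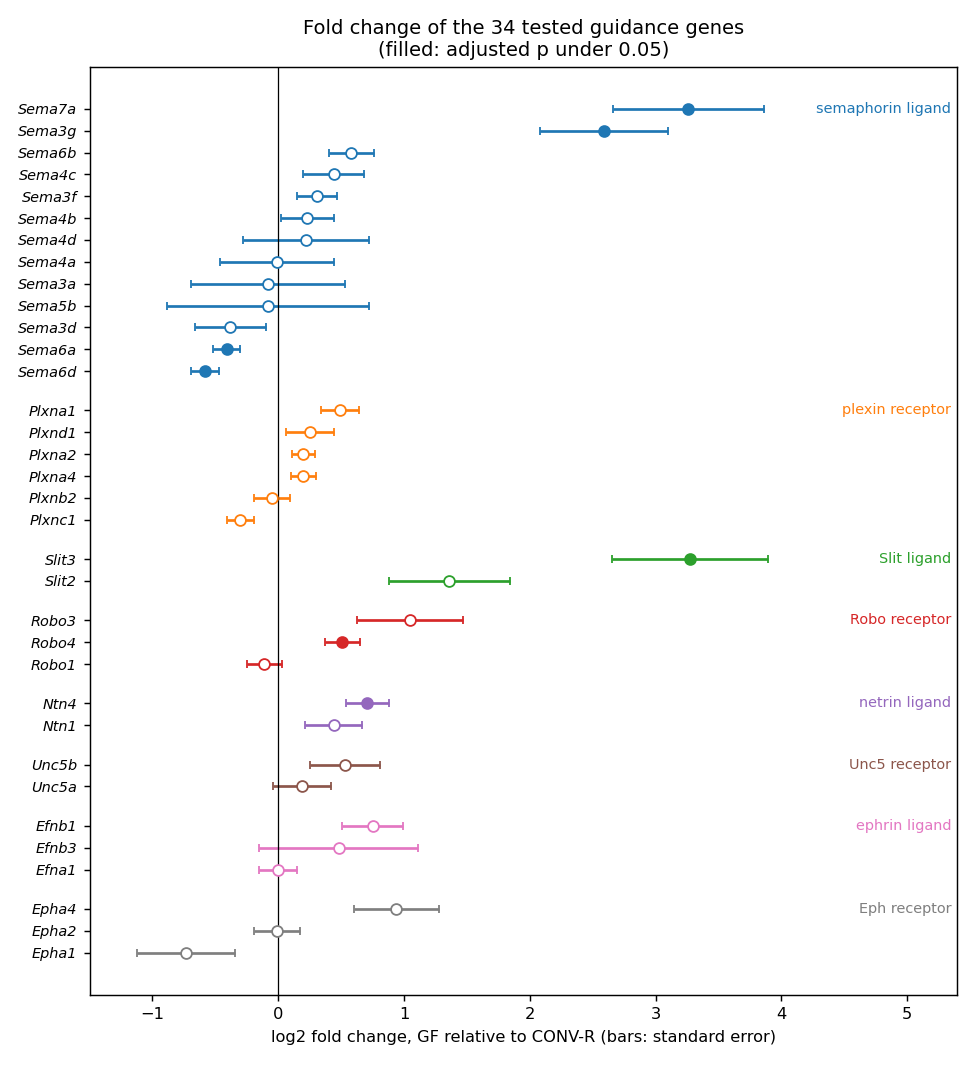
Log2FC of GF relative to CONV-R ECs (horizontal axis) for each of the 34 tested members, grouped by family; bars are the standard error and filled points have an adjusted p under 0.05. *Sema7a*, *Slit3* and *Sema3g* lie between 2.59 and 3.27, apart from every other member.

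Measured per length, the families differed widely in level. Levels between genes are given here as CPM per kb of merged exon, mean ± SD. *Plxnc1*, the receptor of Sema7A, was the highest member, at 372 ± 40 in CONV-R (n = 6) and 302 ± 37.8 in GF (n = 5). That was rank 38 in CONV-R and rank 61 in GF among the 29081 genes with a length, and *Plxnc1* made up 65.4% ± 3.69 of the summed plexin level in CONV-R mice. *Sema6a*, a transmembrane semaphorin, stood at 153 ± 12.2 and 115 ± 18.7, and *Robo4* at 147 ± 28.2 and 209 ± 34.4.

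*Plxnd1*, the endothelial receptor of class 3 semaphorins, had 131 ± 33.3 CPM per kb in CONV-R and 156 ± 45.6 in GF, and *Ntn4* had 94.7 ± 15.8 and 155 ± 50.5. The CONV-R order of *Sema6a*, *Robo4* and *Plxnd1* lies within their spread. In the remaining families *Efna1* led the ephrins (42.2 ± 4.69 and 42.2 ± 11.2), *Unc5a* the Unc5 receptors (11.2 ± 4.08 and 12.7 ± 4.47) and *Epha2* the Eph receptors (4.99 ± 1.13 and 4.96 ± 0.87). Single genes dominated some families: *Robo4* supplied 96.8% ± 0.423 of the CONV-R Robo level and *Ntn4* 98.5% ± 0.306 of the netrin level. By contrast the whole Slit family summed to 0.253 ± 0.178 CPM per kb in CONV-R and 1.12 ± 0.282 in GF.

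**Figure D2:**
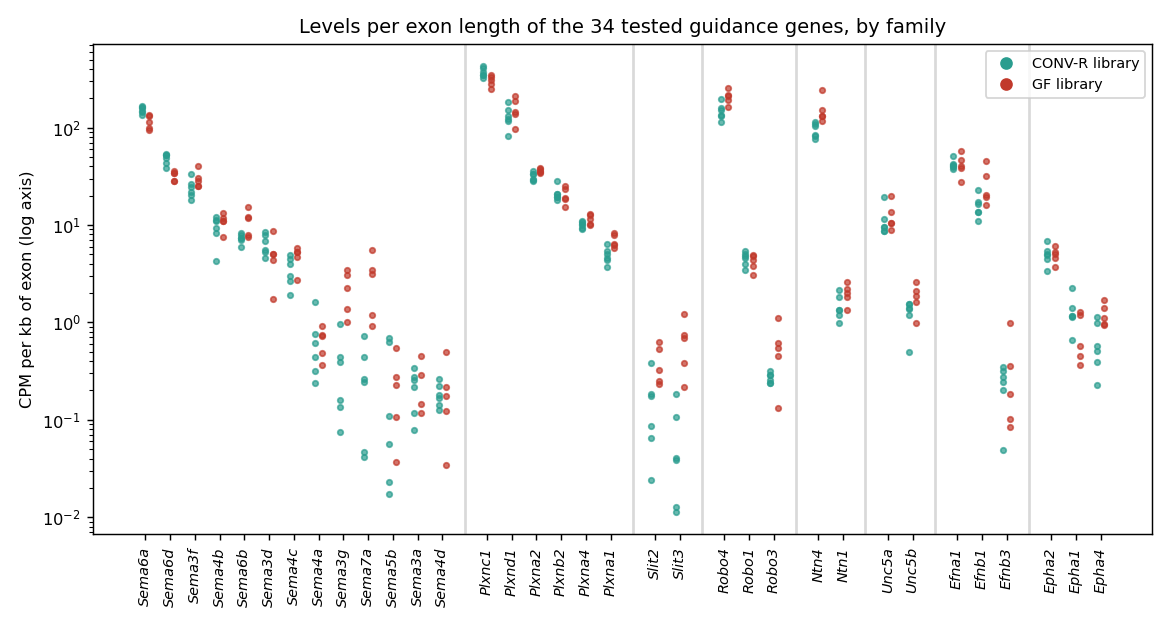
Level per exon length (CPM per kb, log axis) of the 34 tested members in every library, by family and ordered within a family by the CONV-R mean; zero values are not drawn. *Plxnc1* tops all members, and the raised *Sema3g*, *Sema7a* and *Slit3* sit near the bottom of their families in CONV-R libraries.

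Among the semaphorins, a pair of weakly expressed ligands rose in GF ECs and a pair of abundant transmembrane ones fell. *Sema7a* (chr9:57940112-57962865 on GRCm38) encodes a membrane-anchored semaphorin that binds plexin C1 and integrin beta-1. CONV-R libraries held 0.137 to 2.41 CPM with a median of 0.831, and GF libraries 1, 2, 4, 5 and 6 held 3.9, 11.5, 3.05, 10.4 and 18.2 CPM. Every GF value lay above every CONV-R value, with GF 6 the highest. *Sema7a* rose 9.57-fold (Log2FC = 3.26 ± 0.60 SE, adjusted p = 0.00287 by edgeR), on 70 counts in all in CONV-R and 424 in GF.

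*Sema3g*, a secreted class 3 semaphorin typical of arterial endothelium, ranged from 0.341 to 4.36 CPM in CONV-R mice (median 1.25) and stood at 4.55, 15.6, 6.19, 10.2 and 14 CPM in GF mice 1, 2, 4, 5 and 6. The groups did not overlap, although CONV-R 5 came within a short distance of GF 1. The rise was 6.04-fold (Log2FC = 2.59 ± 0.51 SE, adjusted p = 0.00481 by edgeR). The gene lies at chr14:31217860-31230352.

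*Sema6d*, a transmembrane semaphorin that signals through plexin A1, was counted at 407 to 565 CPM in CONV-R mice (median 530) and at 298, 357, 378, 299 and 364 CPM in the GF mice. CONV-R 3 was the lowest CONV-R library and still exceeded GF 4, the highest GF library. *Sema6d* fell by 0.58 on the log2 scale (SE 0.11, adjusted p = 0.00448 by edgeR), with 37826 and 17200 counts behind the groups. Its gene spans chr2:124089969-124667770.

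*Sema6a*, whose protein binds plexins A2 and A4, held 1184 to 1465 CPM in CONV-R mice (median 1348) and 1178, 828, 1165, 862 and 1013 CPM in GF mice. The groups only just failed to touch, since CONV-R 5 and GF 1 were nearly level. It fell by 0.41 on the log2 scale (SE 0.11, adjusted p = 0.0341 by edgeR). Leaving out CONV-R 1, 2, 4 or 6 or GF 2, 5 or 6, one at a time, ended the call, with adjusted p of 0.0561 to 0.0862. Leaving out both libraries that stood apart moved the Log2FC to -0.32 (adjusted p = 0.0965).

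Promoters are shown for *Sema7a*, *Sema3g* and *Sema6d*, so that raised members can be read beside a lowered one; the lowered *Sema6a* was not analysed here for its promoter. RefSeq promoter windows on GRCm38.p6, of 250 bases before and 50 after each start, were matched for 28 of the 34 tested members. In each line below, 150 bases ending at or just before the most upstream annotated start are printed on the plus strand, with GGGTGG, the reverse complement of the KLF box CCACCC, in capitals. The windows are chr9:57939962-57940111, chr14:31217710-31217859 and chr2:124089819-124089968.
Sema7a: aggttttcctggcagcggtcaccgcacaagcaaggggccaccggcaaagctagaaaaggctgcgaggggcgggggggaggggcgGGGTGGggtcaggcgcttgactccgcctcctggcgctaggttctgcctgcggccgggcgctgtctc
Sema3g: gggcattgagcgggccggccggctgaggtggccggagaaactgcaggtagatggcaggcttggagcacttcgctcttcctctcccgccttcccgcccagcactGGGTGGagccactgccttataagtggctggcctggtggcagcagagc
Sema6d: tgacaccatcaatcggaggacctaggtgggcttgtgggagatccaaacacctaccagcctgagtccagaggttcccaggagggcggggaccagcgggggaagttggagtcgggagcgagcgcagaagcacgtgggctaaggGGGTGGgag

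The KLF box, searched on both strands, was in the window of 19 of the 28 members (67.9%), in 31.5% of all 32851 promoters and in 36% of the 12164 promoters of tested genes. It was found for the raised *Sema7a*, *Sema3g*, *Ntn4* and *Robo4* and for the first of the starts listed for the lowered *Sema6d*, and not for *Slit3* or for the other *Sema6d* start (chr2:124653331-124653580), and *Sema6d* was the only lowered member with a window. Its first base lay 66, 60 and 9 bases before the RefSeq start of *Sema7a*, *Sema3g* and *Sema6d*. Other motifs searched were the ETS core CCGGAA (4 of 28 members, 26.7% of promoters of tested genes), the E-box CACGTG (2 of 28, among them the lowered *Sema6d*, 9.54%), the GATA site AGATAA (0 of 28, 6.8%) and the glucocorticoid response element (0 of 28, 0.304%). For every motif the member share counts genes and the other shares count promoters, so they are not like for like. A match is a run of letters and no measured binding site.

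The other 9 tested semaphorins did not pass. *Sema6b*, a class 6 relative of *Sema6a*, came nearest: it held 23.4 to 33 CPM in CONV-R mice (median 29.1) and 61.3, 47.8, 29.6, 46.7 and 31.5 CPM in GF mice, with a Log2FC of 0.58 (SE 0.18, adjusted p = 0.0532 by edgeR). GF 4 and GF 6 overlapped the CONV-R range, and without GF 4 or without GF 6 the adjusted p was 0.0211 or 0.0364. Leaving out GF 1, its highest library, lowered the Log2FC to 0.42 with an adjusted p of 0.163 by edgeR. *Sema3f*, a class 3 semaphorin that uses neuropilin-2, was the third most abundant semaphorin per length and had a Log2FC of 0.31 (SE 0.16, adjusted p = 0.248 by edgeR). The remaining 7 had values between -0.38 (*Sema3d*) and 0.44 (*Sema4c*).

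**Figure D3:**
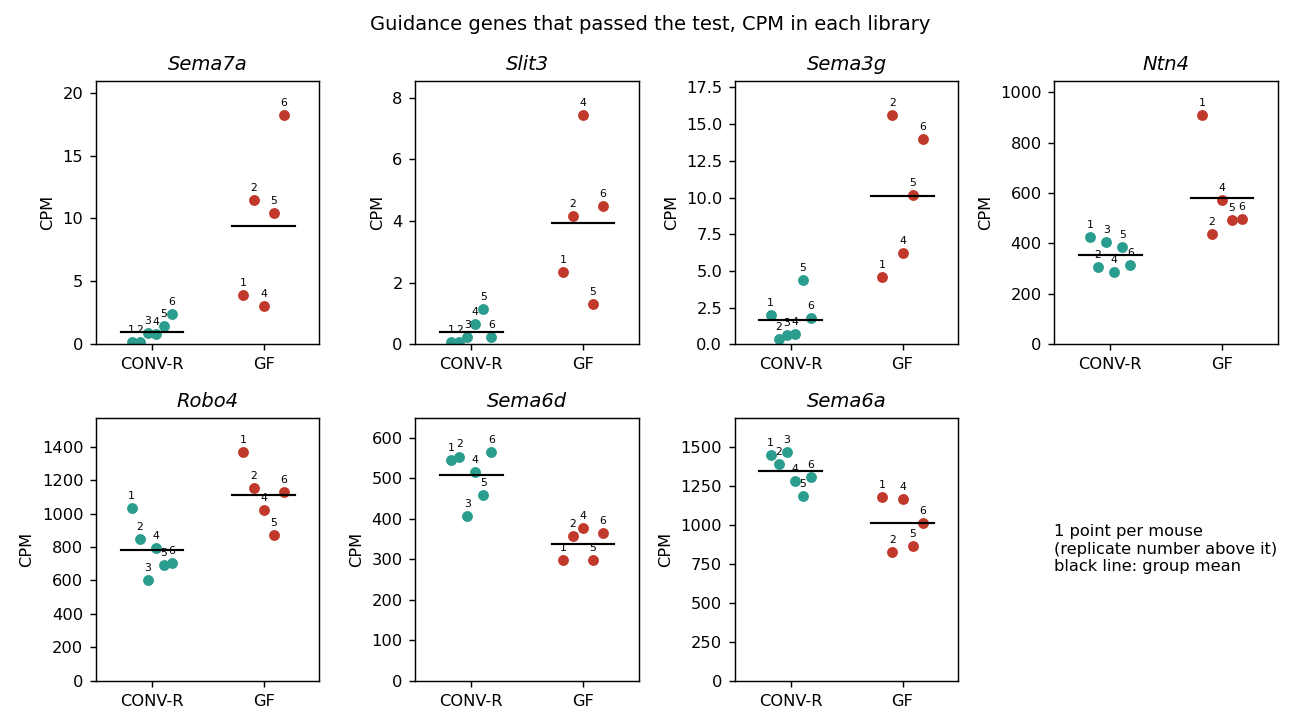
CPM of the 7 members that passed the test in each library (vertical axes start at 0), with the replicate number above each point and the group mean as a black line. Groups are separate in every panel but that of *Robo4*, where CONV-R 1 (1032 CPM) lies above GF 4 (1019 CPM) and GF 5 (872 CPM).

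No plexin was among the 7 members called. *Plxnc1* held 2703 to 3558 CPM in CONV-R mice (median 3014) and 2086, 2543, 2760, 2353 and 2872 CPM in GF mice. GF 4 and GF 6 fell inside the CONV-R range and the Log2FC was -0.30 (SE 0.11, adjusted p = 0.108 by edgeR). With library totals in place of TMM, *Plxnc1* was called lower (Log2FC -0.36, adjusted p = 0.0394 by edgeR). *Plxna1*, a receptor of Sema6D and of class 3 semaphorins, held 33.8 to 57.3 CPM in CONV-R mice (median 43.7) and 75, 70.8, 52.1, 56.1 and 57.9 CPM in GF mice.

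The *Plxna1* groups overlapped only through CONV-R 1, and the Log2FC of 0.49 (SE 0.15) had an adjusted p of 0.0517 by edgeR. It passed without CONV-R 1 (adjusted p = 0.0228), without GF 4 (0.0437) and without GF 5 (0.0451), and in edgeR's robust fit with all libraries (0.0496). Leaving out GF 1, its highest library, lowered the Log2FC to 0.41 with an adjusted p of 0.135 by edgeR. Part of the *Plxna1* exon sequence, 10.7%, overlaps a gene on the opposite strand, and the strand setting of the counting is not given in the sources used here. *Plxnd1*, *Plxna2* and *Plxna4* had a Log2FC of 0.25, 0.20 and 0.20, with adjusted p of 0.474, 0.223 and 0.272 by edgeR.

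For each raised or lowered semaphorin the plexin partner was set beside it. Ligand *Sema7a* went from 0.294 to 2.85 CPM per kb while its receptor *Plxnc1* stood at 372 and 302 CPM per kb. *Sema6a* and *Sema6d*, at 153 and 48.1 CPM per kb in CONV-R mice, exceeded *Plxna2* (31.6), *Plxna4* (10) and *Plxna1* (4.92). *Sema3g*, at 0.361 and 2.22 CPM per kb, remained below its partner *Plxna4* in both groups. Among the neuropilins, the co-receptors of class 3 semaphorins, *Nrp1* had a Log2FC of 0.15 (adjusted p = 0.586 by edgeR) and *Nrp2* of -0.32 (adjusted p = 0.0987). Leaving out GF 6 moved *Nrp2* to -0.41 with an adjusted p of 0.0478. *Nrp2* was also called lower with library totals in place of TMM (Log2FC -0.38, adjusted p = 0.0313 by edgeR).

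In the Slit family the ligand *Slit3* rose from near absence. It held 0.0683 to 1.13 CPM in CONV-R mice (median 0.239) and 2.34, 4.15, 7.43, 1.32 and 4.48 CPM in GF mice, on 29 and 200 counts. All GF libraries exceeded all CONV-R libraries, with GF 4 the highest and CONV-R 5 and GF 5 the nearest pair. The change was 9.66-fold (Log2FC = 3.27 ± 0.62 SE, adjusted p = 0.00391 by edgeR), and *Slit3*, which lies at chr11:35121224-35708507, passed in every leave-one-out fit. The size of the change varied with single libraries: the Log2FC was 3.92 without CONV-R 5 and 2.91 without GF 4 (adjusted p = 0.0124 by edgeR).

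*Slit2*, the most studied Robo ligand in vessels, held 0.614 to 9.77 CPM in CONV-R mice (median 3.3) and 16.1, 8.31, 5.9, 13.4 and 6.37 CPM in GF mice. CONV-R 5 overlapped the GF range. Its Log2FC was 1.36 (SE 0.48) with an adjusted p of 0.0943 by edgeR, and 1.87 with an adjusted p of 0.0214 without CONV-R 5. Leaving out GF 1, its highest library, lowered the Log2FC to 1.11 with an adjusted p of 0.229 by edgeR. *Slit1* had too few counts to test, with 14 in CONV-R and 26 in GF libraries.

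Receptor *Robo4* (chr9:37401897-37415115) held 604 to 1032 CPM in CONV-R mice (median 751) and 1367, 1150, 1019, 872 and 1131 CPM in GF mice. The groups overlapped through CONV-R 1, GF 4 and GF 5. *Robo4* rose 1.42-fold (Log2FC = 0.51 ± 0.14 SE, adjusted p = 0.0336 by edgeR). The call was lost in 8 of the 11 leave-one-out fits, those without CONV-R 2, 3, 4, 5 or 6 or without GF 1, 2 or 6, where the adjusted p was 0.0525 to 0.0921. Without both libraries that stood apart the Log2FC was 0.43 and the adjusted p 0.0847.

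*Robo1*, which is shared between neurons and endothelium, had a Log2FC of -0.11 (SE 0.14, adjusted p = 0.708 by edgeR) at 4.53 and 4.2 CPM per kb. *Robo3* had a Log2FC of 1.05 (SE 0.42, adjusted p = 0.14 by edgeR). Its GF values of 0.91, 4.25, 3.71, 7.54 and 3.12 CPM lay both below and above the CONV-R range of 1.63 to 2.18 CPM, and without GF 1 the adjusted p was 0.034. *Robo2*, with 16 and 21 counts, was not tested.

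Among the netrins *Ntn4*, which encodes the basement membrane netrin, rose in GF ECs. CONV-R libraries held 285 to 425 CPM (median 351) and GF libraries 908, 437, 572, 491 and 496 CPM. All GF values were above the CONV-R range, by a narrow margin in GF 2, and GF 1 was far higher than the other GF mice. *Ntn4* (chr10:93640681-93747207) rose 1.64-fold (Log2FC = 0.71 ± 0.17 SE, adjusted p = 0.0157 by edgeR). Without GF 1 the Log2FC was 0.49, and the adjusted p stayed between 0.0117 and 0.0445 over the leave-one-out fits.

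*Ntn1*, the prototype netrin, had a Log2FC of 0.44 (SE 0.23, adjusted p = 0.267 by edgeR) at 1.47 and 1.99 CPM per kb. *Ntn5* had 2 counts in each group. The receptors *Unc5a* and *Unc5b* had a Log2FC of 0.19 (SE 0.23, adjusted p = 0.681) and 0.53 (SE 0.28, adjusted p = 0.277). *Unc5b* binds both netrins and Robo4, and at 1.26 and 1.82 CPM per kb it was far below *Robo4* and *Ntn4*.

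No ephrin and no Eph receptor was among the 7 members called. *Efnb1*, a transmembrane ephrin, held 38.2 to 78 CPM in CONV-R mice (median 51.9) and 156, 66.1, 70.5, 55.1 and 109 CPM in GF mice. GF 1 and GF 6 lay above the CONV-R range, and the other GF values lay within it. The Log2FC was 0.75 (SE 0.24) with an adjusted p of 0.0626 by edgeR, which became 0.0325 without CONV-R 1, 0.0245 without GF 5 and 0.00764 without the filter on low counts. Leaving out GF 1, its highest library, lowered the Log2FC to 0.47 with an adjusted p of 0.204 by edgeR.

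*Efna1*, the cytokine-inducible ligand of EphA2, was level between the groups, with 69.5 to 93.7 CPM in CONV-R mice and 50.5 to 106 CPM in GF mice (Log2FC = 0.00 ± 0.15 SE, adjusted p = 0.996 by edgeR). Its receptor *Epha2* had a Log2FC of -0.01 (SE 0.18, adjusted p = 0.981). *Epha4* had a Log2FC of 0.94 (SE 0.34, adjusted p = 0.101, and 0.0481 by limma voom) and *Epha1* of -0.73 (SE 0.39, adjusted p = 0.272), both at under 2 CPM per kb. *Efnb3* had 0.48 (SE 0.63, adjusted p = 0.703). For the arteriovenous pair that the rule leaves out, *Efnb2* had a Log2FC of 0.54 (adjusted p = 0.157 by edgeR) and *Ephb4* of 0.42 (adjusted p = 0.154).

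**Figure D4:**
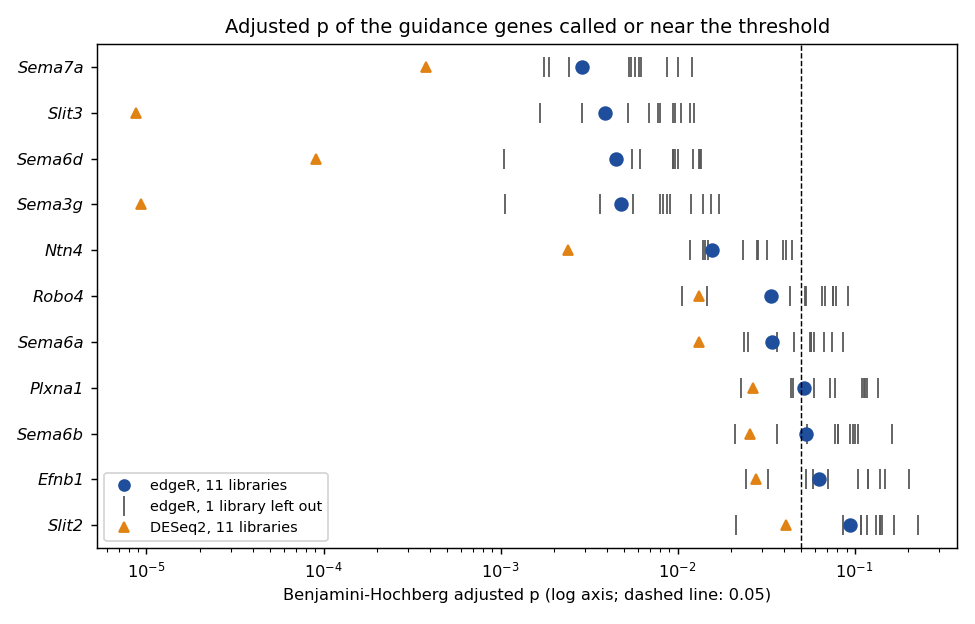
Adjusted p (log axis) of the 7 called members and of the 4 between 0.05 and 0.10, from edgeR with all 11 libraries (circles), edgeR with 1 library left out (ticks) and DESeq2 (triangles). The ticks of *Sema7a*, *Slit3*, *Sema6d*, *Sema3g* and *Ntn4* all lie left of 0.05, and those of *Robo4*, *Sema6a* and the 4 near members fall on both sides.

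The 29 untested members had 1 to 109 counts over all libraries, and each had at least 1. They comprised 10 of the 13 Eph receptors, 4 of the 7 ephrins, 7 semaphorins, 3 plexins, 2 Unc5 receptors and 1 each of the Slits, Robos and netrins. *Ephb1*, an Eph receptor of class B, reached 26 counts in CONV-R and 83 in GF, and *Sema3c*, a class 3 semaphorin, 13 and 63. For both, the GF 2 library was the highest, at 3.86 and 2.22 CPM. *Efna4* had 0 counts in CONV-R libraries, which allows up to 0.0409 CPM over the group, and 10 in GF libraries. Those lay in GF 2 (0.869 CPM) and GF 5 (0.132 CPM), and GF 1, GF 4 and GF 6 held 0. Genes this weak were left out of the edgeR test by its filter on low counts.

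DESeq2, which gave 50 members an adjusted p, called 13 of them, or 26% beside 9.83% of all genes to which it gave one. They held the 7 called by edgeR and *Slit2*, *Efnb1*, *Plxna1*, *Sema6b*, *Sema3c* and *Ephb1*. The last 2 had adjusted p of 0.0184 and 0.0477 by DESeq2. Without the filter on low counts, edgeR called the same 7 with *Slit2*, *Efnb1*, *Sema3c* and *Sema6b*. The voom fit of limma called those 7 with *Slit2*, *Plxna1* and *Epha4*. For the fit without a filter and for voom, the share over all genes is not given here.

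In the rest of the pathway 3 of 53 tested genes passed (5.66%, beside 7.48% of all tested genes). Of 22 co-receptors and partners, such as neuropilins, neogenin and repulsive guidance molecules, 14 were tested and none passed (median Log2FC 0.06), while *Met*, the HGF receptor and a partner of plexins, was called higher by DESeq2 (Log2FC 2.92, adjusted p = 0.000448) and by edgeR without a filter, on 22 counts in CONV-R and 108 in GF. GF 6 held 6.1 CPM of *Met*, against 0.667 to 2.08 CPM in the other GF libraries. Without GF 5, 3 of the list passed as higher in GF (*Neo1*, *Dag1* and *Mcam*). Of 47 intracellular transducers 39 were tested, 3 were lower in GF and none was higher (median Log2FC -0.01). *Enah*, an actin regulator, had an adjusted p of 0.06 by edgeR and was called higher by DESeq2 (Log2FC 1.68, adjusted p = 0.0166). Without GF 2 only *Rhod* was still called among the transducers. With both libraries that stood apart left out, *Rhod*, *Micall1* and *Arhgef15* were called lower and *Pak2* higher, and *Tiam1* and *Fyn* were not called. Leaving out CONV-R 3 alone added *Arhgef15* as lower and *Pak2* as higher. *Rhod*, a small GTPase, held 45.1 to 57.2 CPM in CONV-R mice and 25.4 to 40 CPM in GF mice without overlap (Log2FC = -0.67 ± 0.13 SE, adjusted p = 0.00524 by edgeR).

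*Tiam1*, an activator of Rac that acts downstream of ephrins and Eph receptors, had 117 to 177 CPM in CONV-R mice and 27.3 to 131 CPM in GF mice (Log2FC = -1.05 ± 0.27 SE, adjusted p = 0.0236 by edgeR). Its adjusted p was 0.0525 without CONV-R 2 and 0.0612 without GF 2. *Fyn*, a Src-family kinase used by plexins and EphA receptors, had a Log2FC of -0.46 ± 0.12 SE (adjusted p = 0.0243 by edgeR), and 0.0534 without CONV-R 4, 0.0523 without GF 2 and 0.0724 without GF 6.

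Markers listed for other vessels and other cells also moved between the groups. Among 15 markers of arteries, veins and other large vessels, 14 were tested and 5 were higher in GF (*Cd34*, *Gja4*, *Hey1*, *Vcam1* and *Ly6a*), with summed levels of 1111 to 1611 CPM in CONV-R and 1507 to 2192 CPM in GF mice (exact permutation p = 0.00866, two-sided). The largest rises in mean CPM in this list were those of *Ly6a* (283 in CONV-R and 552 in GF) and *Vcam1* (151 and 283). Whether the listed genes mark large vessels alone was not tested. In the list 9 tested markers had a Log2FC above zero and 5 below. None was called lower with all libraries, but *Rspo3* and *Wnt9b* were called lower without GF 2 and without both libraries that stood apart, *Rspo3* also without a filter, and *Sox17* without GF 5. *Gja5* (adjusted p = 0.0541 by edgeR) was called higher by DESeq2 (adjusted p = 0.0187), without a filter, and without CONV-R 5, GF 2 or GF 5. Of 10 Kupffer cell markers 7 were higher and none lower, with sums of 86 to 222 CPM and 197 to 931 CPM, the largest in GF 6 (exact permutation p = 0.0173). The count of Kupffer cell markers called fell to 3 without GF 6 (*Adgre1*, *C1qb* and *Csf1r*) and to 4 without CONV-R 2, CONV-R 4 or CONV-R 5. Of 6 cholangiocyte markers 2 were tested and *Spp1* was higher, and the sums were 0.615 to 9.21 CPM and 13.7 to 36.8 CPM without overlap (exact permutation p = 0.00433). *Krt19* and *Epcam* were also called higher without a filter, and *Krt19* without GF 4 or without GF 5. The sums were separate only with *Spp1* included: the other 5 cholangiocyte markers summed to 0.615 to 2.75 CPM in CONV-R mice and to 14.9, 6.47, 0.381, 0.925 and 22.1 CPM in GF mice 1, 2, 4, 5 and 6 (exact permutation p = 0.113), and *Krt19* was at 0 in GF 4 and GF 5. No gene of these 3 lists was without a count.

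GF 6 was the highest library for *Sema7a*, as it was for the Kupffer cell and cholangiocyte sums, and GF 1 was the highest for *Ntn4*, *Robo4* and the large-vessel sum. The highest library for *Sema3g* was GF 2 and for *Slit3* was GF 4. None of the stellate cell, hepatocyte, lymphatic, lymphocyte or platelet markers passed in edgeR with all libraries and its filter, and no mesothelial marker had enough counts to test. Lymphocyte sums were nevertheless lower in GF mice (4.1 to 7.21 CPM, against 5.95 to 14 CPM, exact permutation p = 0.039), and mesothelial sums were higher (0.397 to 1.62 CPM, against 0 to 0.543 CPM, exact permutation p = 0.00866). The stellate cell marker *Lrat* was called lower by DESeq2, without a filter and without GF 6. The part that these other cells had in the member values was not tested. In sorted bulk RNA, more cells of one type and more RNA per cell cannot be told apart. In the pan-endothelial list of 8 genes, *Erg* alone passed and was lower (Log2FC = -0.68 ± 0.15 SE, adjusted p = 0.0122 by edgeR). Without GF 5, *Cdh5*, *Pecam1* and *Mcam* of that list passed as higher in GF, and without CONV-R 1 *Mcam* did.

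**Figure D5:**
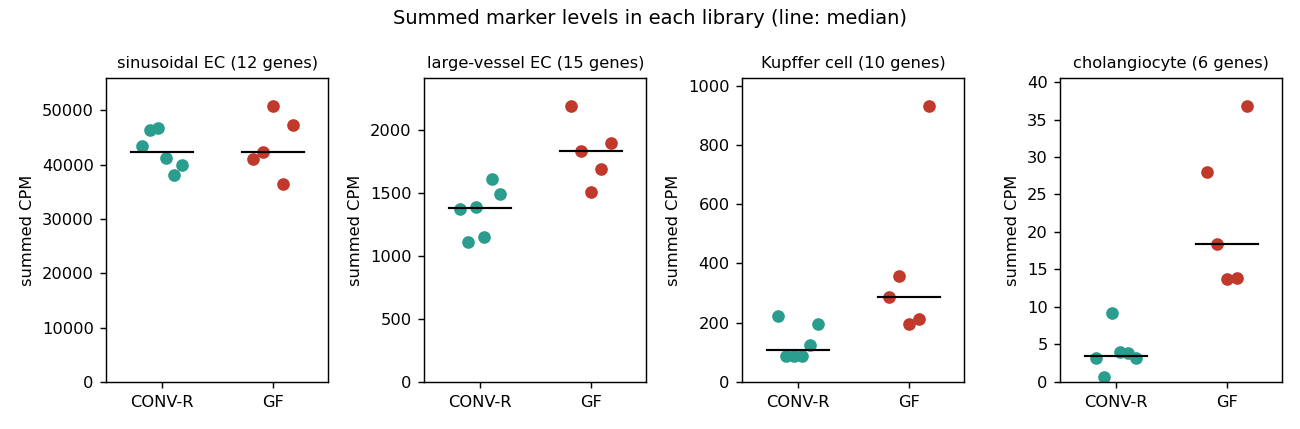
Summed CPM of the sinusoidal EC, large-vessel EC, Kupffer cell and cholangiocyte marker lists in each library (vertical axes start at 0; black line, median). Sinusoidal sums overlap between the groups (36442 to 50760 CPM in GF), whereas the cholangiocyte sums are separate, through *Spp1* alone in GF 4 and GF 5, and GF 6 has the highest Kupffer cell sum at 931 CPM.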

How the data were processed

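RNA of sorted hepatic sinusoidal ECs was amplified from 20 ng by whole-transcriptome amplification and sequenced as single reads of 50 bases, 1 library per mouse. The paper reports that GF livers gave far fewer sorted ECs, and on average far less RNA, than CONV-R livers. It also names poor survival of cells after sorting as a limitation. Cell yield and RNA amount therefore differed along with the group. Their part in the member values, such as those of the weakly counted *Slit3* and *Sema7a*, was not tested. The authors trimmed reads with Trim Galore 0.4.4, mapped them to GRCm38 (mm10) with STAR 2.5.2b, counted genes with featureCounts 1.5.2 and deposited raw counts per gene, the unit used here. Their normalized table was not used. The annotation release and strand setting are not given in the sources used here.

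Counts were tested in R 4.3.3 with edgeR 4.0.16 (filterByExpr, TMM, quasi-likelihood test, no covariate), GF relative to CONV-R, with Benjamini-Hochberg adjustment over 12905 genes and a threshold of 0.05. The standard error is the Log2FC divided by the square root of F. DESeq2 1.42.0, voom of limma 3.58.1 and other filters, scalings and library sets were alternatives. Marker sums were compared by two-sided exact permutation over the 462 splits of the mice. Exon lengths and positions came from GENCODE M21 (63 of 63 members matched). The code was tested on simulated data. Depth limits the weak members: with 29 counts, as for *Slit3* in CONV-R mice, counting error is large.

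The members and lists were chosen with earlier results of these data known. Named were members that passed, lay between 0.05 and 0.10, led their family in level per length, did not overlap, passed by DESeq2 or without a filter, or partnered a called member, with *Efnb2*, *Ephb4*, *Nrp1*, *Nrp2* and called pathway genes. Picked after their values were seen were the ends of the range of the other semaphorins, some untested members, *Met*, *Enah*, pathway genes called only in other fits and the marker genes named singly.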

Additional observations from a re-analysis of the deposited data

Results flagged for a closer look

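In 72 groups of 5 or 6 libraries, covering 36 genes named with a fold change from edgeR, 7 single libraries lay far from the rest of their group by Dixon's 95% criterion. Chance flags about 1 in 20 groups. GF 1 held 908 CPM of *Ntn4*, against 437 to 572 CPM in the other GF libraries. CONV-R 1 held 93.7 CPM of *Efna1*, against 69.5 to 78 CPM, and 80.2 CPM of *Unc5a*, against 35.9 to 48.6 CPM. CONV-R 3 held 92.1 CPM of *Efnb2*, against 172 to 197 CPM, 3.07 CPM of *Unc5b*, against 7.51 to 9.62 CPM, 365 CPM of *Erg*, against 191 to 233 CPM, and 857 CPM of *Fyn*, against 593 to 683 CPM.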

How the results depend on the processing

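*Sema7a*, *Sema3g*, *Slit3*, *Ntn4* and *Sema6d* passed in all 11 leave-one-out fits, with both libraries that stood apart left out (an alternative chosen after seeing the data), and in each other fit without a block that tested them. Of 746 alternatives for 36 single genes, 677 kept direction and side of the threshold, 25 gained and 25 lost the call, and 19 changed sign. Members called numbered 13 by DESeq2 (11 higher), 11 without a filter (9 higher) and 4 with at least 10 counts in every library (2 higher), a filter that leaves out weakly counted members and left 3 without overlap; voom called 8 higher. Leaving out 1 library gave 5 to 10 members called, 4 to 8 higher (8 without GF 4) and 1 to 2 lower, and leaving out both libraries that stood apart gave 1 lower. Apart from DESeq2, the share of all genes called in these alternative fits is not given here. Their member counts are therefore not set against a background. Sign changes were in genes with an adjusted p above 0.6: *Efna1* had -0.03 by voom, -0.06 with library totals, -0.01 without a filter, -0.01 with the stricter filter, -0.06 with a replicate block and -0.03 in the same libraries without it, and leave-one-out ranges were -0.14 to 0.12 for *Efna1*, -0.38 to 0.74 for *Efnb3*, -0.10 to 0.09 for *Epha2* and -0.04 to 0.41 for *Unc5a*; the cause was not tested. Replicate numbers did not pair the mice: the deviations of the 5 same-numbered pairs correlated at 0.25, 0.08, -0.04, 0.04 and 0.08, and 3 of 10 libraries correlated best with their own number. A replicate block gave 9 members called, against 6 in the same libraries without it. The share of all genes called is not given here for either fit, so a change over all genes cannot be told apart.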
